A study of Mus musculus with 21 samples.

Results

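Immediate early genes are switched on within minutes of a stimulus without new protein synthesis, and their products then change the transcription of later genes. Growth factors, nerve activity, injury and stress reach them through kinase cascades that end at factors such as SRF and CREB. Their transcripts are short-lived, and several of their products are phosphatases or RNA-binding proteins that shut the signal off again. The 37 genes described here were taken by gene symbol from this class and from the related acute stress genes, with earlier results of these data known, among 43193 gene symbols found at loci of the deposited table. All 37 were found, each at 1 locus.

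The RNA came from circumvallate papillae of C57BL/6J mice of wild-type genotype at 20 to 24 weeks of age, dissected in Tyrode's buffer and labelled as taste buds. GEO's labels give 7 libraries named Hungry, 7 named Satiated and 7 named Ad lib, 21 in all, and the series text speaks of fasted, fed and ad libitum fed animals. Each locus has a mean and a variance over libraries of size-factor-scaled fragments, both for compatible fragments, which match an annotated transcript, and for total fragments of the locus. The 3 condition codes of the table carry the same values at all 32052 loci, with 0 differing, so no gene could be compared between Hungry, Satiated and Ad lib mice. No level below is a fasted or a fed level, and no value per library could be shown.

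The mean library held 21881979 compatible fragments, summed over loci. Errors below are SDs from the authors' variance. That variance was taken around the means of sets of libraries, as read from loci with fragments in 1 library: 474, 667 and 454 loci had, within a relative tolerance of 0.0001, the ratio of variance to squared mean that sets of 8, 7 and 6 libraries give. A shift of a whole set therefore does not enter it. These sizes are not the labels' 7, 7 and 7, so the sets are not the labelled groups as given, and a difference between Hungry, Satiated and Ad lib mice may or may not be inside an SD below. Among 8 taste cell markers, Krt8, a taste bud keratin, had 37058 compatible fragments, and all 8 reached the limit of 10 fragments used here for detection. Of 6 leukocyte markers 4 were detected, led by Cd68 at 96.6 and C1qa at 48.8, and Cd3e of T cells was listed at 0. Of 3 endothelial markers 2 were detected, Pecam1 at 42.6 and Kdr at 10.7, while Cdh5 had 0.0403 compatible of 209 total fragments. For Kdr at least 77.8% of the scaled fragments came from 1 library. Of 5 fibroblast markers 2 were detected, Pdgfra at 814 (at a locus of 2 gene symbols) and Dcn at 364, while Col1a1 had 0.180. Neither erythrocyte marker was detected, with Hba-a1 at 0.135. All 6 stratified epithelium markers were present, and Krt13 had 17703 with a coefficient of variation (CV, SD over mean) of 1.58. In bulk RNA, fewer cells of a type and less RNA per cell cannot be told apart.

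Nearly all members were detected, at levels that ranged widely. Of the 37 members, 35 reached a mean of at least 10 compatible fragments per library, called detected here, against 42.0% of all loci. For the 6 members at loci shared with other gene symbols, the fragments are those of the whole locus. Single-gene loci hold 1 gene symbol in the merged annotation, and their fragments were assigned to that gene. The GENCODE M21 annotation places other genes over 2766 bases of the locus of Fosl1, 547 of Dusp5 and 276 of Zfp36. Of 31 members at such loci 29 were detected, against 33.3% of all single-gene loci. Per kb of reference exon, the scale on which genes can be compared, 17 of these 29 lay above the median of 134 compatible fragments over all detected single-gene loci and 12 below it, and 7 had over 1000. Btg1, an antiproliferative gene, led with 2975 ± 232 fragments per kb, a level above 97.5% of those loci. Ier2, a nuclear early response gene, followed with 1842 ± 382, then Klf4 with 1414 ± 212, Dusp6 with 1262 ± 153 and Klf6 with 1114 ± 128. Next were Fos with 1026 ± 513, Junb with 1020 ± 350, Btg2 with 990 ± 125, Klf10 with 970 ± 162 and Ier3 with 714 ± 148. Each error is the SD within sets of the 21 libraries. Of the 28 pairs of neighbours in this order, 26 had overlapping mean ± SD ranges, and only Btg1 above Ier2 and Fosl2 above Ier5 stood apart. These ranges describe spread between libraries, and whether the means of neighbours differ was not tested.

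**Figure D1:**
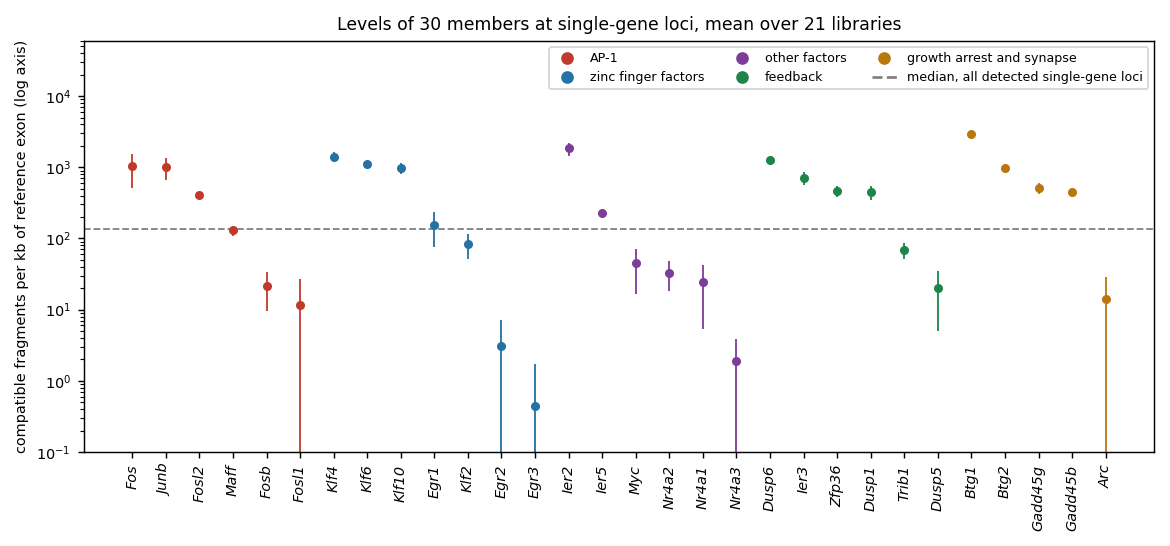
Mean compatible fragments per kb of reference exon (log axis) for the 30 members at single-gene loci with a level above 0, by role. Bars are ± SD within sets of the 21 libraries and run off the axis where the SD exceeds the mean. Btg1 is highest at 2975 and Egr3 lowest at 0.437; the dashed line is the median of all detected single-gene loci, 134.

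AP-1 is a dimer of a Fos or Jun family protein with a second leucine zipper protein. Among the Fos genes, Fos had 2414 ± 1207 compatible fragments (chromosome 12, 85473890 to 85477273, GRCm38) and Fosl2, which encodes Fra-2, had 2363 ± 248 (chromosome 5, 32136472 to 32157831). The means of Fos and Fosl2 at their loci, not divided by length, nearly coincided. Per kb, Fos had 1026 ± 513 and Fosl2 had 404 ± 42.4. Fos varied more, with CVs of 0.500 for Fos and 0.105 for Fosl2. Fosb (chromosome 7, 19302721 to 19310045) had only 81.8 ± 45.8 fragments, so Fos per kb was 47.1 times Fosb. Fosl1, which encodes Fra-1, had 19.8 ± 26.2 fragments (chromosome 19, 5447703 to 5455945), and Fosl2 per kb was 34.8 times Fosl1 by compatible fragments. Most fragments at Fosl1 were not compatible, and by total fragments per kb Fosl2 had 410 and Fosl1 had 59.7. These 2 values divide all fragments of the locus, compatible or not, by the length of reference exons only.

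In the Jun family, Junb had 1877 ± 644 fragments and a CV of 0.343 (chromosome 8, 84976909 to 84978748). Jun and Jund lie at shared loci. The locus of Jun (chromosome 4, 95049034 to 95167318) holds 5 gene symbols, among them the antisense gene Junos, and had 2361 ± 395 fragments. That of Jund (chromosome 8, 70697739 to 70700616), which also holds Gm11175, had 4259 ± 377 with a CV of 0.0885. The 2 other leucine zipper members were Atf3, a stress-induced factor, and Maff, a small Maf protein without an activation domain. Atf3 had 149 ± 56.0 fragments at a locus shared with Gm24748 (chromosome 1, 191170296 to 191218039). Maff had 275 ± 45.9 with a CV of 0.167 (chromosome 15, 79347541 to 79359072).

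The sequence before the transcription start is shown for Fos and Junb, whose levels varied, and for Btg1 and the locus of Jund, which Gm11175 shares, whose levels were steady. Each stretch is the 250 bases before the start, 5′ to 3′ on the strand of the gene, from RefSeq on GRCm38.p6. Capitals mark TGACG, the core of the site bound by CREB and ATF proteins, on either strand, and the TATA box letters TATAAA.
Fos (chr12:85473640-85473889, + strand): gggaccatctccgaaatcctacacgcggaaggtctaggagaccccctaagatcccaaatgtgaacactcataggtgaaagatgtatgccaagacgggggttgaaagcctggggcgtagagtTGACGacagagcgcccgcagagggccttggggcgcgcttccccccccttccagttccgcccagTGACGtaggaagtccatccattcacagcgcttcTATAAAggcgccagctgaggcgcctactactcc
Junb (chr8:84978749-84978998, - strand): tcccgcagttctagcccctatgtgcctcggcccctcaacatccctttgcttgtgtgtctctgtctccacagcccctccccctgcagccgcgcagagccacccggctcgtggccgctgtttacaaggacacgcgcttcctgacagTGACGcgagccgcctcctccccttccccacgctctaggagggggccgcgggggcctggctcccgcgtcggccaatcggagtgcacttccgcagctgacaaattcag
Jund (chr8:70697489-70697738, + strand): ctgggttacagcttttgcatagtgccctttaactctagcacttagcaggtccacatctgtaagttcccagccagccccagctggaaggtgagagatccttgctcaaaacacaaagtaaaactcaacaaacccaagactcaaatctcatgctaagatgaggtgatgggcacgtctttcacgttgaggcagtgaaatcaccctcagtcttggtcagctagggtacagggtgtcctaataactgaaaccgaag
Btg1 (chr10:96616751-96617000, + strand): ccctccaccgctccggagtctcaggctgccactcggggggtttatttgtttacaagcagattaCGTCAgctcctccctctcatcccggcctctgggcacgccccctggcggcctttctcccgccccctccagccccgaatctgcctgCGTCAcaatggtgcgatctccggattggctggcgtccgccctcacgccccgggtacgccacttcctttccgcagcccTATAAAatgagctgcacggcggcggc

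With the last base before the start counted as −1, Fos held TGACG at −129 to −125 and at −66 to −62, with TATAAA at −33 to −28. Junb held TGACG at −106 to −102. No TATAAA lay in this stretch of Junb, but a match reached into the 50 bases after the start. Btg1 held TGACG on the other strand at −187 to −183 and at −103 to −99, and TATAAA at −26 to −21. The stretch of Jund held neither. The variable Fos and Junb and the steady Btg1 thus shared TGACG.

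Across the members, the same scan covered all RefSeq promoters, from 250 bases before to 50 after the start, on both strands. Promoters were in the table for 29 members and for 27025 genes in all. A gene with several starts was counted if any of its promoters held a match, for members and all genes alike. TGACG was present in 17 of the 29 (58.6%), against 23.0% of all genes and 33.9% of the 5796 genes at detected single-gene loci. The full CRE, TGACGTCA, which contains TGACG, was found in Maff, Dusp1 and Btg2 (3 of 29, against 2.03% of all genes and 3.59% of those detected). The CArG box, the site of SRF, was found in Egr2, Dusp5 and Zfp36 (3 of 29, against 1.81% and 1.36%). In Egr2 it lay in promoters of later starts and not in the most upstream promoter. For Fos, as for every gene, bases further than 250 before the start were not scanned. Egr1 was not among the 29 members with a promoter. GCGNGGGCG, the letters EGR proteins bind, was found in 10 of 29, against 6.27% of all genes and 11.4% of those detected. GGGCGG, the GC box, was in 24 of 29, against 38.2% and 65.8%. TATAAA was in 7 of 29, against 15.7% and 9.39%. TGANTCA, the AP-1 site, was in 2 of 29 (6.90%), against 8.97% of all genes and 6.61% of those detected, a share near both. GC content differed between these groups too: its median was 64.7% in the members' promoters, 52.8% over all genes and 60.2% over those detected. The shares of TATAAA, the CArG box and TGANTCA were lower in the detected genes than in all genes, where GC content was higher. The part of GC content in the shares was not tested.

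**Figure D2:**
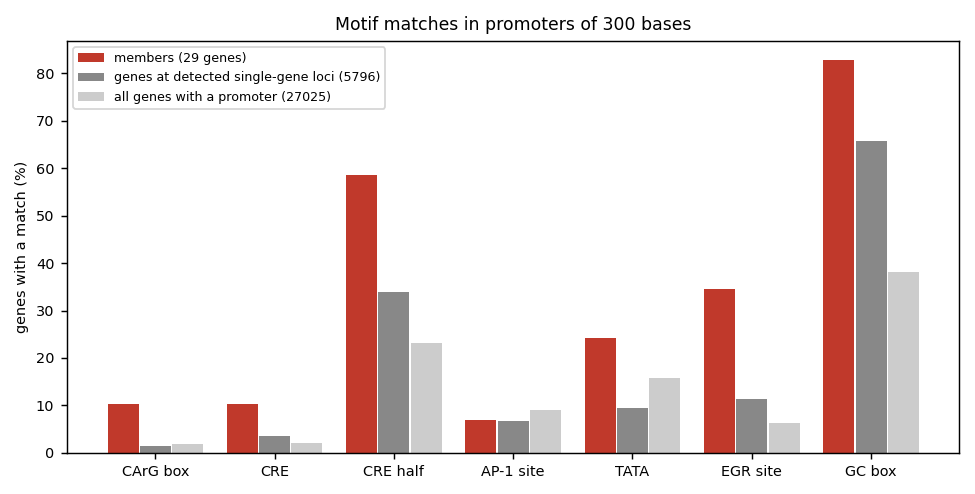
Percentage of genes (vertical axis) with at least 1 match to each motif in a promoter, for 29 members, 5796 genes at detected single-gene loci and 27025 genes in all; TGACG is drawn to the right of the full CRE. The members' bar is highest for all motifs but the AP-1 site, where all genes are at 8.97% and the members at 6.90%.

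Zinc finger members formed a broad range of levels. Egr1, the early growth response factor, had 698 ± 354 compatible fragments and a CV of 0.507 (chromosome 18, 34859823 to 34864984). Egr2, known from myelinating Schwann cells, had 10.6 ± 13.9, just inside the detection limit of 10, and Egr3 had 0.618 ± 1.79, or 13.0 scaled fragments summed over 21 libraries. Egr1 was thus well detected, Egr2 barely so and Egr3 not. For Egr3 at least 39.8% of the scaled fragments came from 1 library, where equal libraries would hold 4.76% each.

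Of the Krüppel-like factors, Klf4, Klf6 and Klf10 were higher than the Egr genes, with lower CVs, and Klf2 was not higher than Egr1. Klf4, an epithelial differentiation factor, had 4310 ± 648 fragments and a CV of 0.150 (chromosome 4, 55527143 to 55532466). Klf6 had 4698 ± 538 with a CV of 0.115 (chromosome 13, 5861489 to 5870393), and Klf10, a TGF-beta-induced repressor, had 2953 ± 492 with a CV of 0.167 (chromosome 15, 38294413 to 38300707). Klf2, known from endothelial cells, was the lowest of the 4 members with 152 ± 57.7 and a CV of 0.379.

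Orphan nuclear receptors of the Nr4a family were low by compatible fragments. Nr4a2 had 134 ± 59.4 compatible fragments, Nr4a1 had 60.0 ± 46.5 and Nr4a3 had 11.4 ± 11.6, the last again just inside the detection limit. Per kb these were 33.0 ± 14.6, 24.2 ± 18.8 and 1.91 ± 1.94. By total fragments the order of Nr4a1 and Nr4a2 turned: Nr4a1 had 183 ± 64.2, Nr4a2 had 166 ± 63.0 and Nr4a3 had 100.3 ± 38.8, ranges that overlapped for Nr4a1 and Nr4a2. The proto-oncogene Myc had 123 ± 76.6 with a CV of 0.622. Npas4, a factor induced by activity in neurons, was listed at 0 compatible fragments and had 0.256 in total, or 5.37 scaled fragments over 21 libraries. Ier2 had 2803 ± 581 with a CV of 0.207 (chromosome 8, 84661331 to 84662852) and Ier5 had 737 ± 107 with a CV of 0.146. The locus of Csrnp1 (chromosome 9, 119894895 to 120068283) holds 6 gene symbols, among them Cx3cr1 and Wdr48, and had 1350 ± 238, so no level of Csrnp1 itself can be given.

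Feedback genes were mostly well expressed. Dusp6, a phosphatase of ERK kinases, had 3528 ± 427 compatible fragments and a CV of 0.121 (chromosome 10, 99263231 to 99267488), while Dusp5, another ERK phosphatase, had 49.7 ± 37.3. Per kb, Dusp6 was 62.8 times Dusp5. Dusp1, which also acts on p38 and JNK, had 1221 ± 273 with a CV of 0.224 (chromosome 17, 26505590 to 26508519). Zfp36, or tristetraprolin, binds AU-rich elements and speeds mRNA decay, and had 834 ± 144. Its relative Zfp36l1 had 2676 ± 395 at a locus shared with Gm26669 (chromosome 12, 80107760 to 80113013). Ier3, a regulator of survival, had 808 ± 167 (chromosome 17, 35821684 to 35822923) and the pseudokinase gene Trib1 had 394 ± 102.

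Growth arrest genes had low CVs. Btg1 had 14906 ± 1164 compatible fragments and a CV of 0.0781 (chromosome 10, 96617001 to 96622813), and its relative Btg2 had 2715 ± 344 with a CV of 0.127 (chromosome 1, 134075170 to 134079120). Per kb, Btg1 was 3.01 times Btg2. Gadd45b and Gadd45g, stress sensors of MAP kinase signalling, had 565 ± 83.9 and 597 ± 99.4 fragments, with CVs of 0.149 and 0.167. Gadd45a had 1974 ± 227 at a locus it shares with E230016M11Rik (chromosome 6, 67035096 to 67080654). Arc, a synaptic gene of active neurons, had 43.1 ± 45.9 with a CV of 1.07.

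AU-rich elements in the 3′ untranslated region, which mark short-lived mRNAs, were present in some members. The nonamer TTATTTATT was found in 7 of 37 members (18.9%), against 8.07% of 19911 genes, taking the longest such region per gene in GENCODE M21. The median length was 1186 bases for members and 1043 bases over all genes. Between 500 and 2000 bases, the shares were 6 of 25 members (24.0%) and 6.83% of 8915 genes. ATTTA, the core that the nonamer contains, had a median density of 2.26 per kb in members and 1.35 per kb over all genes. The first nonamer of each of the 5 carriers at single-gene loci is shown in capitals within 30 bases on GRCm38, with DNA letters.
Dusp1 (chr17:26506158-26506187, - strand): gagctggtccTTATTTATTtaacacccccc
Fos (chr12:85477103-85477132, + strand): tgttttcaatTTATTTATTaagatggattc
Fosl2 (chr5:32156871-32156900, + strand): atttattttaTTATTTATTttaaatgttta
Maff (chr15:79358778-79358807, + strand): ttccacactcTTATTTATTgcacgaatcta
Zfp36 (chr7:28376950-28376979, - strand): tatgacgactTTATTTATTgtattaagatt

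Zfp36, whose protein binds these elements, thus carries one itself. Of the 5 carriers 2, Fos and Dusp1, lay above the authors' fitted variance, a curve of variance against mean, and of 24 members without the nonamer 9 did. The median log2 ratio of variance to that curve was −0.88 for the carriers and −0.12 for the others, with no test of the difference. Over all detected single-gene loci, 151 of 564 genes with the nonamer and 1623 of 6366 without it lay above the curve. There the medians ran the other way, at −0.61 with the nonamer and −0.66 without.

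Variability between libraries differed widely within the class. Of the 29 detected members at single-gene loci, 11 had a variance above the authors' fitted variance, against 27.6% of all such loci. The median log2 ratio of variance to fitted variance was −0.16 for the members (29 loci) and −0.62 for the other loci (8667 loci). This difference of 0.45 was 0.11 by total fragments with a running median as the curve and 0.27 with shared loci included. With a limit of 50 fragments the count above was 7 of 24, against 25.2% of other loci, and above a running median it was 18 of 29, against 49.5%. Fos had the highest log2 ratio, 3.0. Egr1 followed at 2.05, Junb at 1.77, Arc at 1.19 and Fosl1 at 1.17. The variable members included the serum and activity response factors Fos, Egr1 and Junb. Other early response members, among them Fosb, Nr4a2, Zfp36 and Btg2, lay below the fitted variance. A log2 ratio above 1 was reached by 5 of the 29, Fos, Egr1, Junb, Arc and Fosl1, against 8.87% of the other loci.

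At the other end, Maff had a log2 ratio of −2.18, Btg1 of −2.11, Gadd45b of −1.71, Fosl2 of −1.51 and Ier5 of −1.49. With Gadd45g at −1.32 and Klf6 at −1.02, 7 of 29 lay below −1, against 34.0% of the other loci. Neither end of the range was thus empty, and AP-1 members stood at both: Fos, Junb and Fosl1 above the fitted variance, Fosl2 and Maff far below it, and Fosb at −0.03. None of the 6 shared loci lay above it, their log2 ratios running from −1.78 for Jund to −0.17 for Jun.

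**Figure D3:**
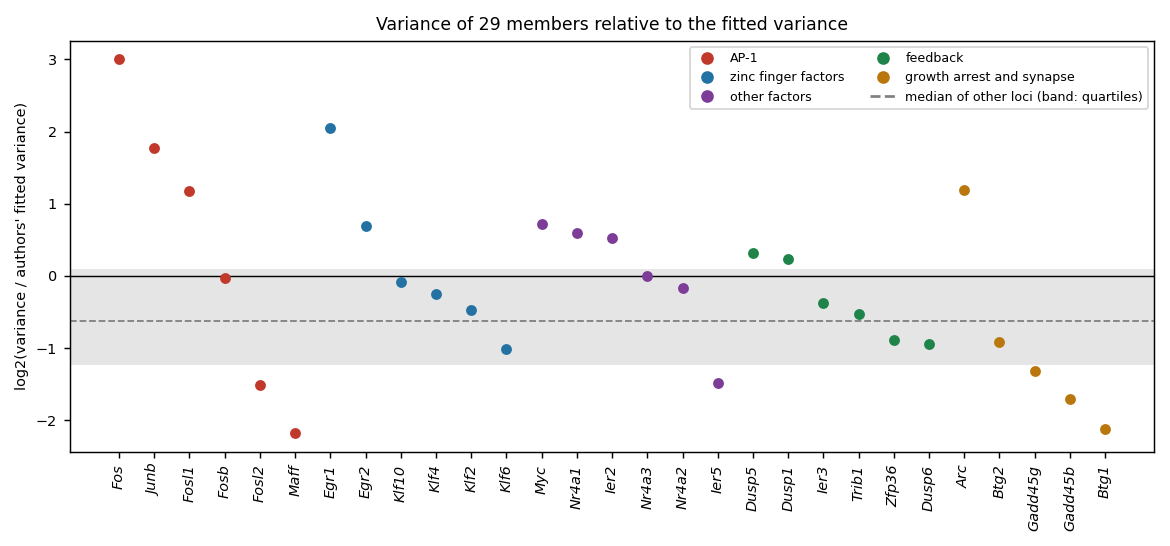
Variance over fitted variance on a log2 scale (vertical axis) for the 29 detected members at single-gene loci, by role; the dashed line and band are the median and quartiles of the 8667 other loci. Fos is highest at 3.0 and Maff lowest at −2.18.

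By role, 3 of 6 AP-1 members lay above the fitted variance, 2 of 6 zinc finger members (Egr1 and Egr2), 3 of 6 other factors (Myc, Nr4a1 and Ier2), 2 of 6 feedback genes (Dusp1 and Dusp5) and 1 of 5 growth arrest and synaptic genes (Arc). Median log2 ratios by role were 0.57, −0.17, 0.26, −0.45 and −1.32, in the same order. Level mattered for this count. Among members with 10 to 100 fragments, 5 of 7 were above, against 38.0% of other loci at that level. From 100 to 1000 fragments 2 of 11 members, Egr1 and Myc, were above, against 25.3%. From 1000 to 10000 fragments 4 of 10 were above, namely Fos, Junb, Ier2 and Dusp1, against 21.3%. Counting error is small beside these CVs: its CV, 1 over the root of the mean, is 0.0204 for Fos and 0.0379 for Egr1, against measured CVs of 0.500 and 0.507. It was 0.307 for Egr2 and 0.225 for Fosl1, against 1.31 and 1.32.

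**Figure D4:**
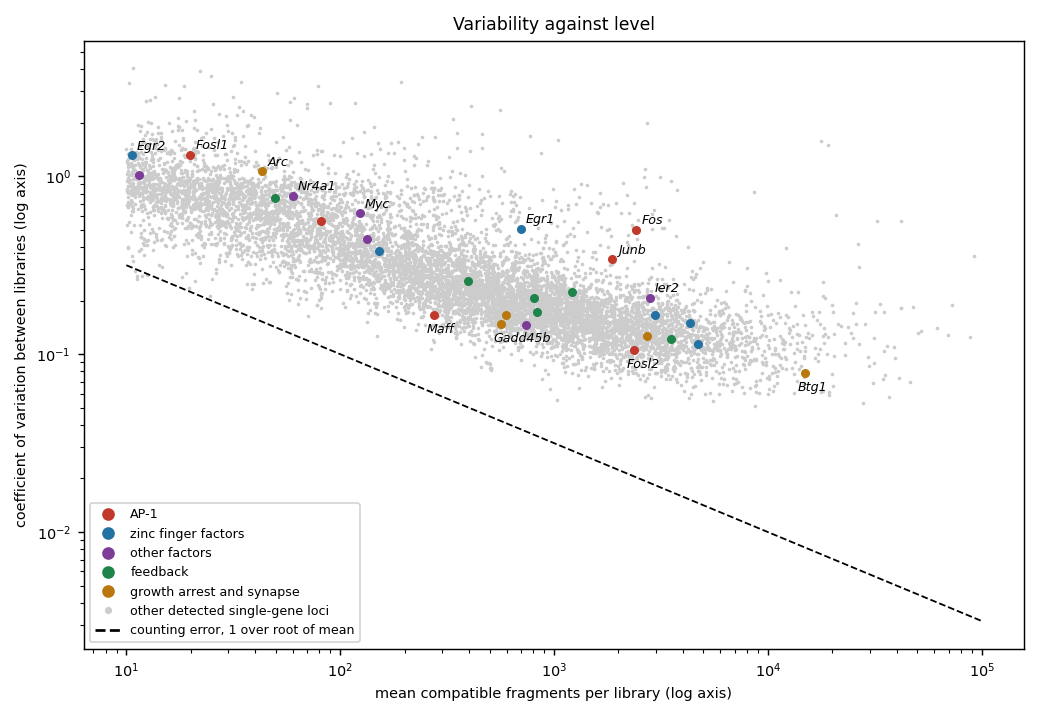
CV between libraries against mean compatible fragments per library, both on log axes, for the 29 members and the 8667 other detected single-gene loci; the dashed line is counting error alone. Fos (2414 fragments, CV 0.500) and Egr1 (698, CV 0.507) lie above most loci of like level, and Maff (275, CV 0.167) and Btg1 (14906, CV 0.0781) below most.

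Markers of stratified epithelium varied strongly in the same libraries. All 6 lay above the fitted variance with a median log2 ratio of 5.56, and levels from 193 fragments for Lor to 41906 for Krt6a. At least 54.9% of the scaled fragments of Lor came from 1 library. Taste cell markers had 2 of 6 above and a median of −0.48. Whether Fos, Egr1 and Junb were high in the same libraries as these keratins could not be examined without values per library, and their part was not tested.

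Promoters with TGACG and variance were also set side by side. Of the 14 detected single-gene members with TGACG, 6 lay above the fitted variance, with a median log2 ratio of −0.02, and of the 8 without it 0 did, with a median of −1.17. The other 7, Fosl1, Egr1, Klf10, Myc, Ier2, Trib1 and Arc, had no promoter in the table, and 5 of these 7 lay above the fitted variance, so the division leaves out 5 of the 11. Over all detected genes the order was the other way round, with medians of −0.78 with TGACG and −0.63 without. This division was made after the values had been seen, and no test was run.

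For most members nearly all fragments matched an annotated transcript. The compatible share was above 90% at 21 of 29 members (72.4%), near the 68.7% of detected single-gene loci. Its median was 97.5% for the members and 95.5% for the other loci. A share below 50% was found at 3 of 29 members, against 653 of 8696 detected single-gene loci. Nr4a3 had 11.4 compatible of 100 total fragments (11.4%), Fosl1 had 19.8 of 102 (19.4%) and Nr4a1 had 60.0 of 183 (32.8%). At Fosl1, the antisense gene Ccdc85b (chromosome 19, 5453180 to 5457894 in GENCODE M21) overlaps 2766 bases of the locus, which the merged annotation does not show. For Nr4a1, GENCODE M21 starts 12.6 kb before the locus. At Nr4a3 both annotations have the same ends. Total fragments were less uneven at these loci: CVs by total fragments were 0.387 for Nr4a3, 0.540 for Fosl1 and 0.352 for Nr4a1, against 1.01, 1.32 and 0.776 by compatible fragments.

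**Figure D5:**
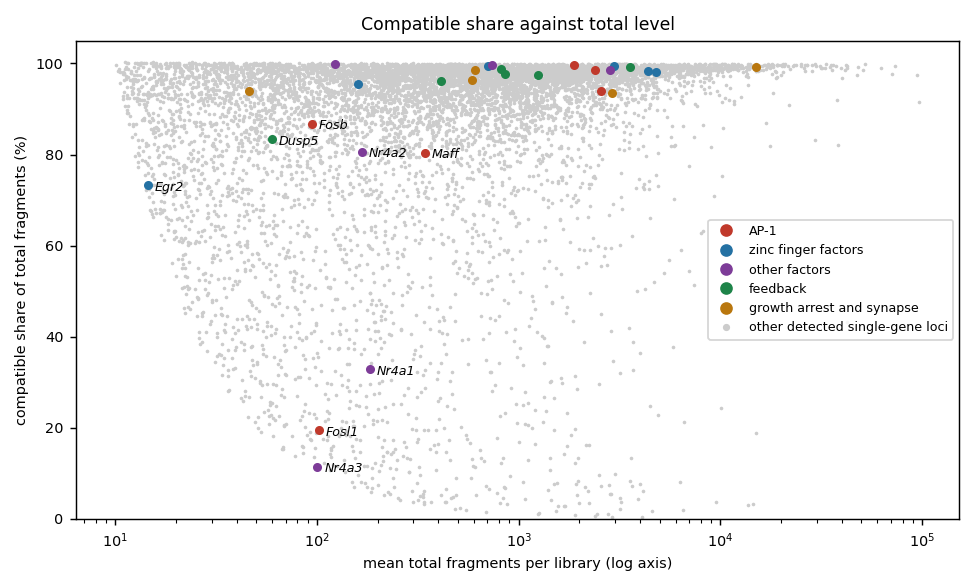
Compatible share of total fragments in percent against mean total fragments per library (log axis) for 29 members and the other detected single-gene loci. Labelled members lie below 90%; Nr4a3, Fosl1 and Nr4a1 are lowest at 11.4%, 19.4% and 32.8%.

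Compact genes prevailed. The locus of 24 of 29 members spanned under 10 kb, against 37.4% of detected single-gene loci, with medians of 5.16 kb and 15.6 kb for members and other loci. The longest reference transcript structure had a median of 4 exons in members and 7 in other loci. Assembled transcripts that differ from the reference were merged at the loci of Klf4, Nr4a2, Nr4a3, Myc and Dusp1 (5 of 29, against 34.4%). Junb, Ier2 and Ier5 had 1 exon in all reference transcripts (3 of 29, against 12.7%), as did Jun and Jund at their shared loci.

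Other genes of the pathway, on lists chosen by function, placed the members in context. Of 24 upstream factors and kinases, 23 were detected and 3 of 11 at single-gene loci lay above the fitted variance, with a median log2 ratio of −0.84. Mapk3, which encodes ERK1, had the highest level of them at 986 fragments per kb, followed by Mef2a at 568 and Atf1 at 500. Their highest log2 ratios were 0.47 for Creb1, 0.41 for Mapk14, which encodes p38 alpha, and 0.0019 for Elk3. Srf lay at a locus of 20 gene symbols.

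Among 10 further leucine zipper genes all 10 were detected and 2 of 6 lay above the fitted variance, among them Jdp2 at a log2 ratio of 0.19. Atf4, the integrated stress response factor, was their most abundant gene with 3962 fragments per kb and a log2 ratio of −2.74. Cebpd had 239 fragments per kb and a log2 ratio of −0.07.

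Of 30 other early and delayed response genes, 28 were detected and 8 of 19 lay above the fitted variance, with a median log2 ratio of −0.30. Socs3, an inhibitor of cytokine signalling, had a log2 ratio of 2.93, Ptgs2, the inducible cyclooxygenase, 2.63 and Zfp36l2 1.63. Mcl1, a survival factor, led in level with 3060 fragments per kb, then Rhob with 2457 and Plk2 with 1973, and none of these 3 exceeded the fitted variance.

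Of 13 other acute stress genes, 12 were detected and 5 of 8 lay above the fitted variance, with a median log2 ratio of 0.42. The metallothionein gene Mt2 had 2.17, the chaperone gene Hsph1 1.87 and Hspa1b 1.81. Hspb1 led in level with 5866 fragments per kb, then Hspa1b with 1714 and Hsph1 with 1140. Hspa1b has a near-identical copy, Hspa1a, so its level is uncertain.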

How the data were processed

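RNA of 21 libraries was sequenced. The submitters' processing notes name Cuffdiff, Cufflinks, TopHat, Bowtie2, Trimmomatic and FastQC with build GRCm38.p4. Their versions and settings were not given in the sources used here. Deposited by the authors were a merged annotation and, per the file headers, a table of a variance model with the mean, variance and fitted variance of scaled fragments per locus, not divided by length. Whether counting used strand is not given. The values of the 3 conditions were identical, so the planned contrasts could not be run.

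Members were matched by gene symbol in the merged annotation. Levels per kb used the union of reference exons. The running median covered 101 loci. A leading library's least share was the squared CV divided by 21. Set sizes were read within a relative tolerance of 0.0001. Variance steps were tested on simulated data. The members and lists were chosen with earlier results of these data known. All members are given; in full, the 10 highest per kb, the 5 highest and 5 lowest log2 ratios, undetected members and those at shared loci, and of each list the 3 highest by level per kb and by log2 ratio at single-gene loci, except 1 gene that is not reported here. Alternatives were other detection limits, total fragments, shared loci, the running median, removal of uneven members, other lengths and another promoter window. Scripts ran under Python 3.11.15 with pandas 2.3.3, numpy 2.4.6 and matplotlib 3.10.9.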

Additional observations from a re-analysis of the deposited data

How the results depend on the processing

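No paired analysis was possible because the table holds no values per library; for the same reason the contrasts between Hungry, Satiated and Ad lib, the replicate block and leaving out replicates were not run. The count of detected members was 35 of 37 with at least 1 fragment, against 50.7% of all loci, and 30 with at least 50, against 35.4%. It was 29 of 31 at single-gene loci, against 33.3%, and 35 of 37 by total fragments, against 50.3%. The count above the fitted variance was 7 of 24 with at least 50 fragments, where 25.2% of other loci were above, and 18 of 29 above a running median, where 49.5% were; it remained 11 with at least 1 fragment or with shared loci. The members' median log2 ratio exceeded that of the other loci by 0.45. The difference was 0.27 with shared loci, 0.11 by total fragments with a running median and 0.45 with the running median. Leaving out Fosl1, Egr2 and Arc, picked by their high CV, bears on nothing, since CV is also the outcome. The cause of these changes was not tested. By total fragments, 6 of 37 levels moved by more than 1 SD, those of Fosl1, Maff, Egr3, Nr4a1, Nr4a3 and Npas4; with the longest transcript as length, Trib1 moved to 104 from 69.2 fragments per kb. The motif shares stayed within 1.5 times in the 250 bases before the start. Members under 100 fragments have the least precise CVs.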

Other observations

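The 37 members lie on 16 chromosomes, with 6 on chromosome 15 and 4 on chromosome 8. On chromosome 8, Junb starts 314 kb after the end of Ier2. On chromosome 19, Fosl1 starts 458 kb after the end of Npas4, and both had low or no compatible fragments. Dusp1 combined the full CRE in its promoter with 2 nonamers in its 3′ untranslated region, as did Maff, and their log2 ratios of variance to fitted variance were 0.23 and −2.18.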
